A study of Homo sapiens with 6 samples.

Results

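Proteasome subunits and assembly factors are taken here as the rows of the expression table whose symbol starts with PSMA to PSMG and a number, or is POMP or ADRM1. The rule found 50 of the 17911 genes. PSMC3IP, a meiotic recombination cofactor, matches it by name alone, and the other 49 are subunits, regulators or assembly factors of the proteasome. RNA was sequenced from HL-60, a long-established line grown from a human promyelocytic leukaemia. In 3 libraries the cells had received amiodarone, an antiarrhythmic drug, at 10 uM for 24 h, and 3 others are labelled control, with no vehicle named. All 6 came from the same cell line, with no other agent or allele in the labels. Whether the 3 libraries of a group were separate cultures is not stated, and p-values refer to the library-to-library spread, possibly a technical one.

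The proteasome is the barrel-shaped protease that breaks down proteins tagged with ubiquitin. Its 20S core is a stack of rings of alpha subunits, which gate the entrance, and beta subunits, some of which cut peptide bonds. The 19S cap recognises ubiquitin, unfolds the substrate with a ring of ATPases and feeds it into the core. In leukocytes and under interferon, PSMB8, PSMB9 and PSMB10 can take the place of the catalytic subunits PSMB5, PSMB6 and PSMB7, giving the immunoproteasome, whose peptides are presented on HLA class I. Transcription of subunit genes as a set is known to depend on NFE2L1 (NRF1) acting through antioxidant-type elements, and on CCAAT boxes in many of their promoters.

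Promoter windows from RefSeq (GRCh38.p14, 250 bases before to 50 after an annotated start) are shown for 8 genes. They were chosen for the immune subunits, for the neighbours TAP1 and PSMD13 described below, and for members that changed and hold a searched motif. Each runs 5′ to 3′ along its gene, and capitals mark matches on either strand to TGACNNNGC (the core of the NFE2L1 and NFE2L2 element, whose first letters also occur in AP-1 and CRE sites), CCAAT, or GAAA, NN and GAAA joined in 1 run (the interferon response type). One more motif, GGG, NNNNN and CC joined (the NF-kB type), was searched and is not marked, being present in most windows. The first 4 belong to genes of antigen processing: PSMB8 (the window of its starts that holds a match, chr6:32843998-32844297, minus strand), PSMB10 (chr16:67936801-67937100, minus), TAP1 (chr6:32853655-32853954, minus) and PSMB9 (chr6:32853942-32854241, plus).
PSMB8: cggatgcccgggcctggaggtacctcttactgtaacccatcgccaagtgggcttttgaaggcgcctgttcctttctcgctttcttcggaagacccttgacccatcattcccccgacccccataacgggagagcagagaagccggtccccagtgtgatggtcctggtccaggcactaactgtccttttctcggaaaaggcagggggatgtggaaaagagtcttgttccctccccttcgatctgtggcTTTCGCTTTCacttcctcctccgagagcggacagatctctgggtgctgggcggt
PSMB10: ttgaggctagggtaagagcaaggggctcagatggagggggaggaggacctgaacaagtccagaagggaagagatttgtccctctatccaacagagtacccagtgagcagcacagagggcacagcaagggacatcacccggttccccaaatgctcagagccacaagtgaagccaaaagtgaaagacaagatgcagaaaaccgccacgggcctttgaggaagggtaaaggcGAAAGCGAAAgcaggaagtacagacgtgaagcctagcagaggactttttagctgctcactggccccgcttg
TAP1: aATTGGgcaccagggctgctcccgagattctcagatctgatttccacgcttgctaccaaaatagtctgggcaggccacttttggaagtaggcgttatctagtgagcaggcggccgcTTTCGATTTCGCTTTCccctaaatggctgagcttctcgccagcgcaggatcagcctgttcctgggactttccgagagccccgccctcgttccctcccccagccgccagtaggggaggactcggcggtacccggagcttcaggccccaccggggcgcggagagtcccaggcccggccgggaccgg
PSMB9: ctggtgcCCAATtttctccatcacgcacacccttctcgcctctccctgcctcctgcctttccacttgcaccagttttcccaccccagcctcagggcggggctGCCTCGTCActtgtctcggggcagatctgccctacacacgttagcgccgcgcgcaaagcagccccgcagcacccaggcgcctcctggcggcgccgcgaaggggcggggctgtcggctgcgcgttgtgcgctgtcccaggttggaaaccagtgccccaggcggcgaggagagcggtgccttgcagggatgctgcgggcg
The others are PSMD13, with no marked match (chr11:236726-237025, plus), PSMG1 (chr21:39183402-39183701, minus), PSMB2 (chr1:35641477-35641776, minus) and PSMD5 (chr9:120842873-120843172, minus).
PSMD13: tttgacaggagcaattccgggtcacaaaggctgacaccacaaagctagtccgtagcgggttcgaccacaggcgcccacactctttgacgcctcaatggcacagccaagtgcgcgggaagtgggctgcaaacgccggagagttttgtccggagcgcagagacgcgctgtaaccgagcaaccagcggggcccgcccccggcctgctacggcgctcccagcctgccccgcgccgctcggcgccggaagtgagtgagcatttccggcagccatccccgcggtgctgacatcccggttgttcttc
PSMG1: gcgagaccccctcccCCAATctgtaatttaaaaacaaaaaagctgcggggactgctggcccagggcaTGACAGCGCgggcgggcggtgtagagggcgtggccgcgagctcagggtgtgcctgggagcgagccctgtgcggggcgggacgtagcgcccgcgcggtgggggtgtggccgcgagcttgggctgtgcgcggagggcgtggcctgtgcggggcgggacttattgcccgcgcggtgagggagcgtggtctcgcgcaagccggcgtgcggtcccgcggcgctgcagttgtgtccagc
PSMB2: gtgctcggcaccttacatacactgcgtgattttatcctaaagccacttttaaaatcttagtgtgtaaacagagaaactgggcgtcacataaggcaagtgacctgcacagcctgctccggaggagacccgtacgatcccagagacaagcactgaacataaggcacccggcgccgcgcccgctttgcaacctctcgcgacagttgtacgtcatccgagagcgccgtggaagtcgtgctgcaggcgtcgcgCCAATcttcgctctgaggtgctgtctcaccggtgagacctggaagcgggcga
PSMD5: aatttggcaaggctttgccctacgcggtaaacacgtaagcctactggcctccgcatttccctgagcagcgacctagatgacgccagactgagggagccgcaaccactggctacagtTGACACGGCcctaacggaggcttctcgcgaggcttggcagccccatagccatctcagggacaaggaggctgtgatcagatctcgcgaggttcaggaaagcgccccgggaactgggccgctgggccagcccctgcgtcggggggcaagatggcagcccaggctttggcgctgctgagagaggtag

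The windows covered 44 members, some with several starts, in 55 windows. TGACNNNGC was found in 17 of these 55 (30.9%), against 13.3% of all 35116 windows. The interferon type was found in 7 of 55 (12.7%), against 3.57% of all windows, and CCAAT in 23 of 55 (41.8%), against 34.6%. The NF-kB type was found in 37 of 55 (67.3%), against 58.7%. The 7 members with the interferon type were PSMB8, PSMB10, PSME1, PSME2, PSMA4, PSMB4 and PSMG4. Matches of different motifs overlapped 2 times in these windows, both times with the NF-kB type. Such a match is a run of letters, not a shown binding site. No window was used for PSMA7, PSMB1, PSMB6, PSMB7, PSMD4 and PSMG3.

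Values in the table are RPKM-like, that is they behave as if scaled to gene length and depth, though no unit is given. Levels of different genes are set side by side here on that reading. They depend on the gene lengths used, which are not known. Steps between low values put the depth at about 16200000 reads or fragments in each amiodarone library and 17700000 to 18100000 in the controls, if the values are RPKM. A value of 1 in a gene of 1 kb would then stand for about 16.2 to 18.1 reads. The table sums to 568654 to 574483 in the amiodarone libraries, against 534486 to 539030 in the controls. Summed promyelocyte markers (MPO, ELANE, AZU1, CTSG, PRTN3 and CD33) lay at 2993 to 3058 after amiodarone, against 6837 to 6958 in controls. Most of this sum is MPO, at 2613 ± 28.4 after amiodarone and 5962 ± 43.7 in controls, while CD33 had 95.6 ± 3.55 after amiodarone and 91.7 ± 2.12 in controls (SD, n = 3 each) and did not pass the test. The part of these differences in the results below was not tested. Of 11 markers of T, B, epithelial, erythroid and hepatic cells found in the table, 8 stayed below 1 in every library, and CD79A was the highest, at 9.26 ± 0.384 after amiodarone and 11 ± 0.427 in controls (SD, n = 3 each). In bulk RNA, fewer cells of a type and less RNA per cell cannot be told apart.

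Most proteasome transcripts were slightly lower after amiodarone. Of 49 tested members 33 fell and 4 rose (limma on log2(value + 1), adjusted p under 0.05 over all 11445 tested genes), and 12 did not pass the test. Among all tested genes 78.3% were called, 44.8% lower and 33.5% higher, so a call by itself sets no gene apart here. The median log2 fold change was -0.15 over the members and -0.06 over all tested genes. In 38 of the 49 members the log2 fold change was within 0.32 of 0, as in 51.9% of all tested genes. The groups did not overlap in 38 members, 32 lower and 6 higher, against 79.3% of all tested genes, 45.3% lower and 34% higher. PSMA8, the alpha subunit of testis, was the one member not tested, at 0.11 to 0.17 after amiodarone and 0.06 to 0.19 in controls.

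**Figure D1:**
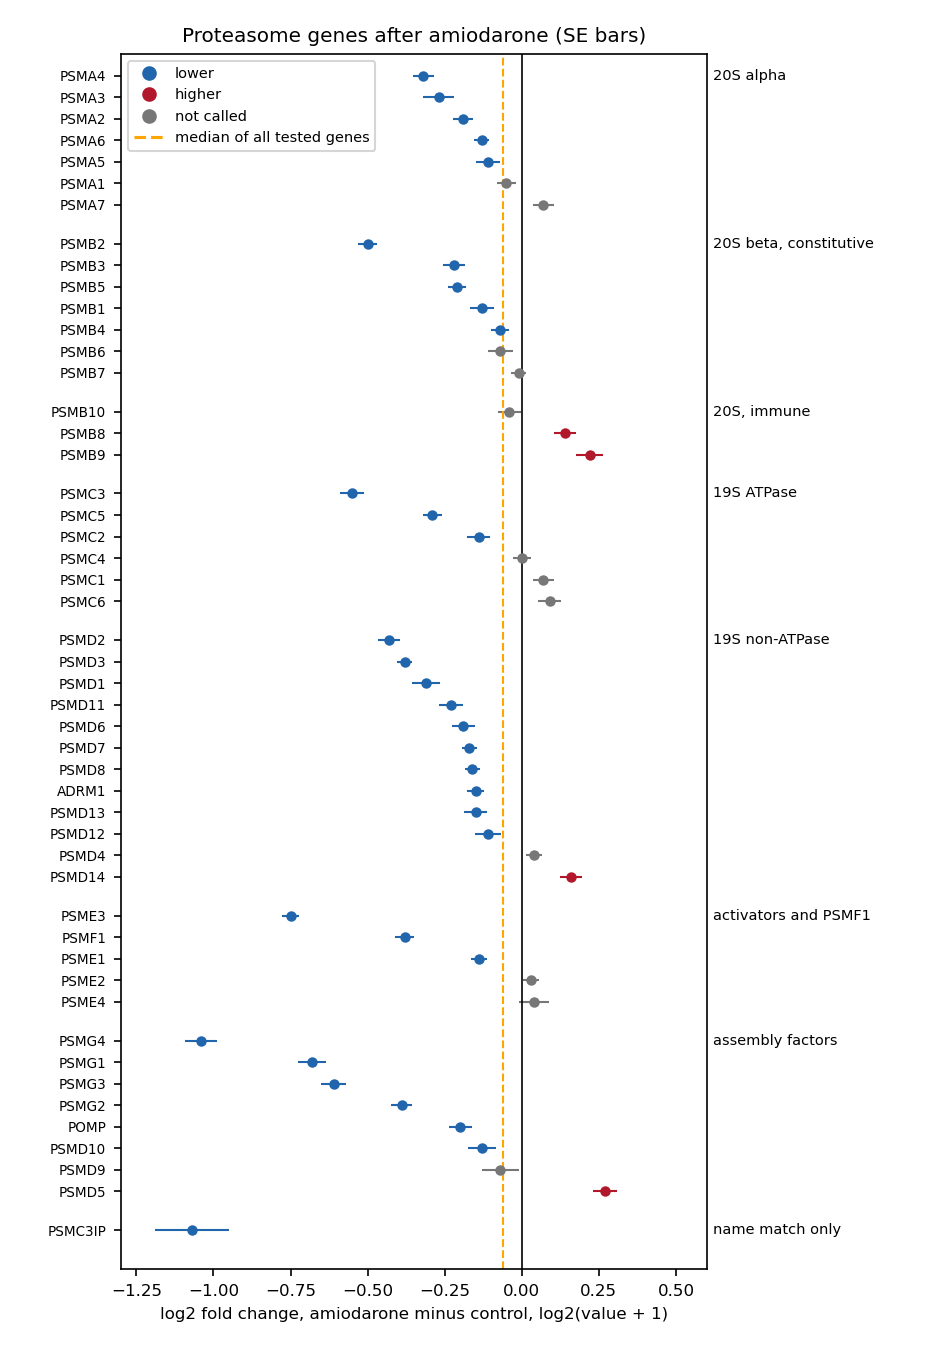
Log2 fold change of each tested member, amiodarone minus control, on log2(value + 1), by subcomplex, with bars for 1 SE (n = 3 libraries per group) and colour for the call at an adjusted p under 0.05. Most points lie between -0.5 and 0, PSMG4 (-1.04) and PSME3 (-0.75) lie lower than the other proteasome genes, and PSMD5, PSMB9, PSMD14 and PSMB8 lie above 0; the dashed line is the median of all tested genes (-0.06).

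Proteasome transcripts were abundant, with a median level of 57.3 over the tested members against 10.9 over all tested genes, and 47 of 49 lay above that median. Summed over the 49 proteasome genes without PSMC3IP, the value was 3060, 3054 and 3079 in the amiodarone libraries, against 3459, 3473 and 3424 in the controls. The mean after amiodarone was 0.888 times that in controls. As a share of all summed values it was 0.537% ± 0.00448 after amiodarone and 0.644% ± 0.00313 in controls (SD, n = 3 each), or 0.833 times. The share falls further because the table sums were higher after amiodarone, and it amounts to scaling to equal sums, an alternative given below. Every amiodarone library lay below every control library, with an exact two-sided permutation p of 0.1, the smallest that 3 libraries against 3 can give. Replicate spread was small, with a median coefficient of variation over the members of 3.07% after amiodarone and 2.84% in controls.

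Among the alpha subunits of the 20S core, which form its outer rings, 5 of 7 fell and none rose. PSMA4 changed most, with values of 95.5, 89.7 and 97.2 after amiodarone, against 120.9, 114.7 and 116.8 in controls. The groups were apart, and the log2 fold change was -0.32 ± 0.034 SE (limma adjusted p = 6.83e-06). The other 4 that fell were PSMA3, PSMA2, PSMA6 and PSMA5, at 0.825 to 0.921 times the control mean. Scaling by the median of ratios ended the calls of PSMA6 (limma adjusted p = 0.0793) and PSMA5 (0.415), and that of PSMA5 also ended without amiodarone replicate 2 (0.0837) or control replicate 2 (0.0699). PSMA7 (120 ± 2.86 after amiodarone and 115 ± 4.76 in controls) and PSMA1 (121 ± 3.48 and 126 ± 3.62) did not pass the test (SD, n = 3 each). Scaling to equal sums called PSMA1 lower (-0.139, limma adjusted p = 0.0019). Exons of PSMA1, PSMA2 and PSMA6 share 24.7%, 14.6% and 14.1% of their bases with another annotated gene on the same strand. Alpha transcripts, whose proteins are built into the ring in equal number, ranged 9.51-fold in level after amiodarone and 9.62-fold in controls, with PSMA5 lowest and PSMA6 highest in both.

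Of the 7 constitutive beta subunits 5 fell and none rose. Over the 14 constitutive core subunits, limma called 10 lower and 0 higher, and 0 were higher at an unadjusted p under 0.05 or without the mean-variance trend. Core subunits were called higher under other settings: PSMA7 (0.146, limma adjusted p = 0.00233) and PSMB7 (0.066, 0.0361) with scaling by the median of ratios, and PSMA7 (0.09, 0.0412) without control replicate 2. PSMB2, a structural subunit of the inner ring, had the largest fall. Its values were 24.9, 25.4 and 24.8 after amiodarone, against 35.3, 36.3 and 35.8 in controls, a log2 fold change of -0.50 ± 0.031 SE (limma adjusted p = 7.95e-08). PSMB2 was the lowest of the 7 in level in both groups, at 25.0 ± 0.33 after amiodarone and 35.8 ± 0.53 in controls, and the ratio of the highest, PSMB4, to it was 8.11 after amiodarone and 5.97 in controls. PSMB3 and PSMB1, also non-catalytic, fell to 0.859 and 0.913 times the control mean, the call of PSMB1 ending with scaling by the median of ratios (limma adjusted p = 0.26). PSMB4 fell to 0.95 times, but its groups overlapped and its call (limma, adjusted p = 0.0402) ended or turned under 8 of 13 alternatives.

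Of the 3 catalytic subunits of the standard core, PSMB5 fell and PSMB6 and PSMB7 did not pass the test. PSMB5, which carries the chymotrypsin-like site, had values of 86.2, 89.9 and 84.5 after amiodarone, against 101.3, 100.8 and 98.7 in controls. It fell with no overlap, by a log2 fold change of -0.21 ± 0.029 SE (limma adjusted p = 5.88e-05). PSMB6, the caspase-like subunit, had 46.5, 48.3 and 44.3 after amiodarone, against 47.7, 51.0 and 47.4 in controls. PSMB7, the trypsin-like subunit, had 170.5, 170.4 and 165.3 after amiodarone, against 167.7, 172.7 and 171.0 in controls. In both of these the groups overlapped and no change was called (limma, adjusted p = 0.132 for PSMB6 and 0.591 for PSMB7). Scaling to equal sums called both lower, PSMB6 by -0.158 (limma adjusted p = 0.00251) and PSMB7 by -0.105 (0.00144), and scaling by the median of ratios called PSMB7 higher, as given above. Whether the change of PSMB5 differs from theirs was not tested.

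Of the immune subunits 2 rose, PSMB10 did not pass the test and limma called 0 lower, with 0 lower at an unadjusted p under 0.05 or without the trend. PSMB8, the counterpart of PSMB5, had 58.6, 57.3 and 56.2 after amiodarone, against 52.9, 53.8 and 49.2 in controls. All 3 amiodarone values lay above all 3 control values, and the log2 fold change was 0.14 ± 0.037 SE (limma adjusted p = 0.00446). PSMB9, the counterpart of PSMB6, had 15.3, 14.4 and 15.7 after amiodarone, against 12.8, 12.5 and 13.2 in controls. The groups were again apart, with a log2 fold change of 0.22 ± 0.044 SE (limma adjusted p = 6.81e-04). PSMB10, the counterpart of PSMB7, had 39.2, 40.4 and 43.0 after amiodarone, against 41.9, 41.8 and 42.7 in controls, and the groups overlapped (limma, adjusted p = 0.286). Scaling to equal sums ended the call of PSMB8 (0.051, limma adjusted p = 0.199) and called PSMB10 lower (-0.133, limma adjusted p = 0.00751). The call of PSMB9 was kept under all 13 alternatives. Exons of PSMB10 share 34.8% of their bases with another annotated gene on the same strand, and those of PSMB8 and PSMB9 overlap each other on opposite strands over under 5% of their bases.

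**Figure D2:**
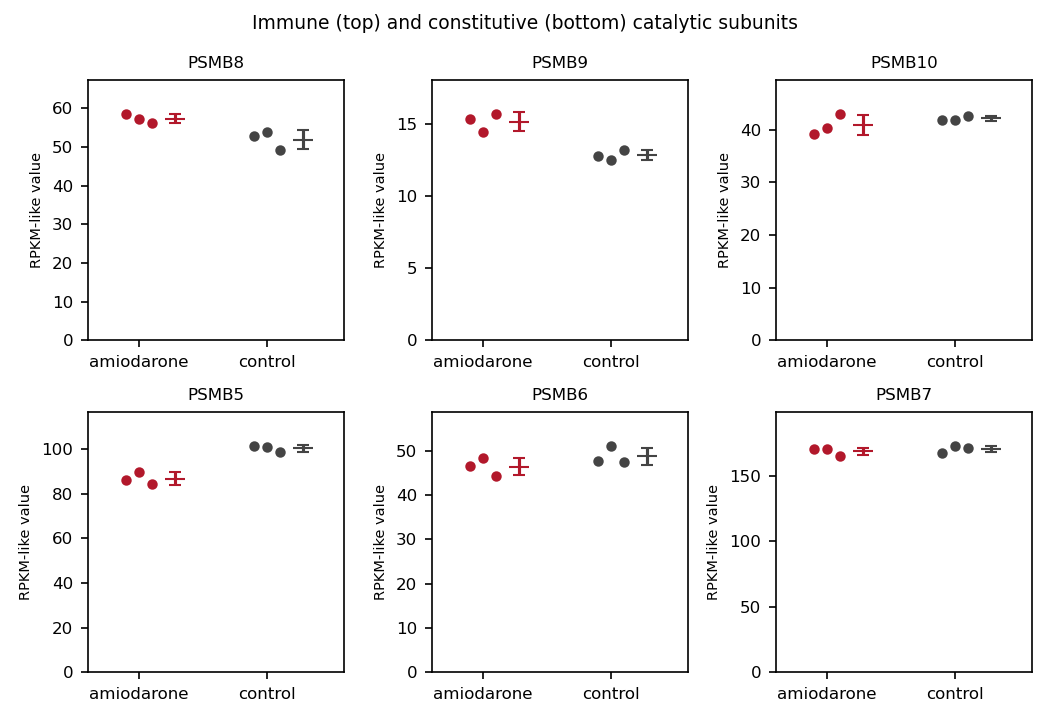
RPKM-like value of the immune subunits (top row) and of the constitutive subunit each can replace (bottom row), as points for the 3 amiodarone and the 3 control libraries, with mean and SD beside them. PSMB8 and PSMB9 lie higher and PSMB5 lower after amiodarone without overlap, while the groups overlap in PSMB10, PSMB6 and PSMB7.

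Ratios within a library do not depend on how libraries are scaled. The summed immune subunits came to 0.373, 0.363 and 0.39 of the summed PSMB5, PSMB6 and PSMB7 after amiodarone, against 0.34, 0.333 and 0.331 in controls. The ratio was higher in 3 of 3 amiodarone libraries, by 0.17 on the log2 scale with a standard error of 0.032 (two-sided exact permutation p = 0.1, the smallest possible with 3 against 3). By pair, and with no test, PSMB8 over PSMB5 was 0.661 ± 0.0214 after amiodarone and 0.518 ± 0.0178 in controls, and PSMB9 over PSMB6 was 0.327 ± 0.0275 after amiodarone and 0.264 ± 0.017 in controls (SD, n = 3 each). PSMB10 over PSMB7 was 0.242 ± 0.0156 after amiodarone and 0.247 ± 0.00432 in controls, with overlapping groups. In both groups the constitutive transcript was the more abundant of each pair.

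In the 19S cap 13 of 18 members fell and PSMD14 rose, with a median log2 fold change of -0.16. Of the 6 ATPases, which unfold the substrate, PSMC3, PSMC5 and PSMC2 fell, PSMC2 not with scaling by the median of ratios (limma adjusted p = 0.172). PSMC3 had 48.6, 48.0 and 43.9 after amiodarone, against 69.5, 68.9 and 68.3 in controls, a log2 fold change of -0.55 ± 0.038 SE (limma adjusted p = 1.98e-07). This was the largest fall of the 32 constitutive core and cap subunits. PSMC1, PSMC4 and PSMC6, which belong to the same ring, did not pass the test, with 76.7 ± 2.98, 57.4 ± 0.394 and 38.6 ± 0.3 after amiodarone, against 73.0 ± 1.82, 57.2 ± 1.63 and 36.2 ± 1.91 in controls (SD, n = 3 each). Scaling by the median of ratios called all 3 higher (0.149, 0.084 and 0.169), equal sums called PSMC4 lower (-0.086), and PSMC1 was also called higher without amiodarone replicate 1 and PSMC6 without control replicate 3 or with a minimum value of 5. For PSMC1, 75.8% of the exonic bases lie opposite the coding gene NRDE2 and 13 pseudogenes carry its name in the annotation, and PSMC5 lies opposite FTSJ3 over 19.5%, and the assignment of their reads is uncertain, since the strand setting of the counting is not given.

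Of the 12 non-ATPase subunits of the cap 10 fell. PSMD2, the scaffold on which ubiquitin shuttles dock, had 38.8, 37.4 and 39.8 after amiodarone, against 50.7, 51.7 and 54.6 in controls, a log2 fold change of -0.43 ± 0.036 SE (limma adjusted p = 1.02e-06). PSMD3, PSMD1 and PSMD11 fell to 0.768, 0.797 and 0.845 times the control mean. PSMD6, PSMD7, PSMD8, PSMD12, PSMD13 and ADRM1 fell to 0.875 to 0.923 times, but the call of PSMD12 ended under 6 of 13 alternatives, among them the replicate block (limma adjusted p = 0.0509), scaling by the median of ratios (0.469) and leaving out amiodarone replicate 1 or 2 or control replicate 1 or 3 (0.0545 to 0.112). PSMD14, the deubiquitinase that strips ubiquitin from the substrate before it is degraded, went the other way. Its values were 32.5, 34.7 and 33.5 after amiodarone, against 29.7, 30.7 and 29.3 in controls, with no overlap and a log2 fold change of 0.16 ± 0.035 SE (limma adjusted p = 0.00147), but scaling to equal sums gave 0.074 (adjusted p = 0.0821). Of the ubiquitin receptors, ADRM1 fell (146 ± 5.04 after amiodarone and 162 ± 3.2 in controls), and PSMD4 had 85.5 ± 2.05 after amiodarone and 83.1 ± 0.208 in controls without passing the test (SD, n = 3 each). With scaling by the median of ratios ADRM1 was not called (-0.066, limma adjusted p = 0.0773) and PSMD4 was called higher (0.12, 0.00153).

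The summed cap subunits came to 0.771, 0.767 and 0.773 of the summed constitutive core subunits after amiodarone, against 0.786, 0.784 and 0.811 in controls, without overlap and with no test. Set against the mean log2 level of the 32 core and cap subunits in each library, 28 of the 32 shifted by under 0.25. The 4 others were PSMC3 (-0.39 ± 0.05), PSMB2 (-0.34 ± 0.018) and PSMD2 (-0.27 ± 0.044) on the lower side and PSMD14 (0.32 ± 0.029) on the higher (SE, n = 3 per group). On the same measure PSMB8 shifted by 0.30 ± 0.039 and PSMB9 by 0.38 ± 0.042. Against the median level of the 32, which was tried first, 26 shifted by under 0.25. Both measures were chosen after the values were seen and given no test.

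The activators open the core gate in place of the cap, and among them and PSMF1, PSME3 had the largest fall. PSME3 (PA28-gamma), which forms a ring in the nucleus, had 58.3, 55.6 and 57.6 after amiodarone, against 97.7, 96.1 and 97.0 in controls. It fell to 0.59 times the control mean, a log2 fold change of -0.75 ± 0.028 SE (limma adjusted p = 1.38e-09). PSME1 and PSME2 form the other, interferon-inducible PA28 ring. PSME1 fell to 93.2 ± 1.69 after amiodarone, against 103 ± 1.29 in controls, and PSME2 had 74.3 ± 0.986 after amiodarone and 72.9 ± 0.364 in controls (SD, n = 3 each) without passing the test. PSME3 over the sum of PSME1 and PSME2 was 0.349, 0.335 and 0.34 after amiodarone, against 0.56, 0.543 and 0.553 in controls. PSME4 (PA200), a large single-chain activator, had 9.02 ± 0.221 after amiodarone and 8.72 ± 0.395 in controls and did not pass the test (SD, n = 3 each). With scaling by the median of ratios PSME1 was not called (limma adjusted p = 0.055) and PSME2 (0.108, limma adjusted p = 0.00289) and PSME4 (0.118, 0.0396) were called higher, while equal sums called PSME2 lower (-0.062, 0.042). PSMF1 (PI31), first known as an inhibitor of the core, fell under every scaling tried, with 53.8, 54.8 and 51.6 after amiodarone, against 68.4, 70.3 and 71.2 in controls (log2 fold change -0.38 ± 0.031 SE, limma adjusted p = 7.15e-07).

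PSMG4 had the largest fall among the tested proteasome genes, and the other chaperones that start the core fell too. PSMG1 and PSMG2 form one dimer and PSMG3 and PSMG4 another, and both scaffold the alpha ring without staying in the finished particle. All 4 fell by at least 0.32 on the log2 scale, where 27.8% of all tested genes did so. PSMG4 had 13.9, 12.7 and 13.5 after amiodarone, against 26.95, 30.74 and 28.02 in controls. Its log2 fold change was -1.04 ± 0.052 SE (limma adjusted p = 1.4e-08), and 253 of the 11445 tested genes fell further. PSMG1 had 28.9, 31.7 and 32.6 after amiodarone, against 51.1, 48.2 and 52.3 in controls (log2 fold change -0.68 ± 0.046 SE, limma adjusted p = 1.58e-07). PSMG3 fell to 0.645 times the control mean and PSMG2 to 0.76 times, again without overlap of the groups. Exons of PSMG4 and PSMG2 lie opposite a coding gene over 13.3% and 13.9% of their bases.

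Relative to the transcripts of the core subunits they help assemble, these chaperone transcripts were lower too. The sum of PSMG1 to PSMG4 came to 0.109, 0.111 and 0.115 of the summed constitutive core subunits after amiodarone, against 0.151, 0.153 and 0.153 in controls, a change of -0.45 on the log2 scale with a standard error of 0.023. This ratio was formed after the values were seen and was given no test. POMP, which drives the maturation of the beta rings and is then degraded by the new proteasome, also fell. It had 42.3, 44.4 and 43.6 after amiodarone, against 51.3, 47.6 and 51.5 in controls (log2 fold change -0.20 ± 0.037 SE, limma adjusted p = 4e-04). Of the chaperones of the cap's ATPase ring, PSMD5 rose, with 18.4, 18.4 and 19.5 after amiodarone, against 15.7, 15.2 and 15.3 in controls (log2 fold change 0.27 ± 0.039 SE, limma adjusted p = 7.31e-05). PSMD10 fell to 0.91 times the control mean, a call that ended under 4 of 13 alternatives, with limma adjusted p = 0.296 for scaling by the median of ratios and 0.0683 to 0.0797 without amiodarone replicate 1 or 2 or control replicate 2. PSMD9 did not pass the test (12.4 ± 0.923 after amiodarone and 13.1 ± 0.849 in controls, SD, n = 3 each), but scaling to equal sums called it lower (-0.159, limma adjusted p = 0.0242). Exons of PSMD9 share 14.9% of their bases with another annotated gene on the same strand.

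**Figure D3:**
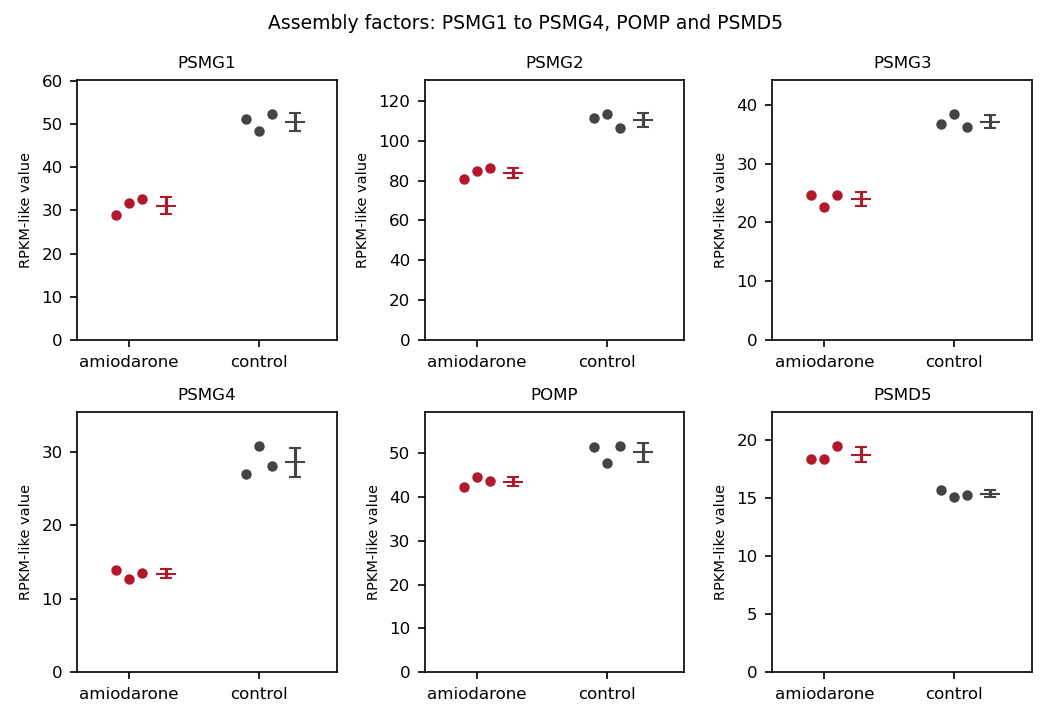
RPKM-like value of the core chaperones PSMG1 to PSMG4, of POMP and of the cap chaperone PSMD5, as points for the 3 amiodarone and the 3 control libraries, with mean and SD beside them. PSMG1 to PSMG4 and POMP lie lower after amiodarone in every library and PSMD5 higher; PSMG4 lies at 12.7 to 13.9 after amiodarone and at 27.0 to 30.7 in controls.

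**Figure D4:**
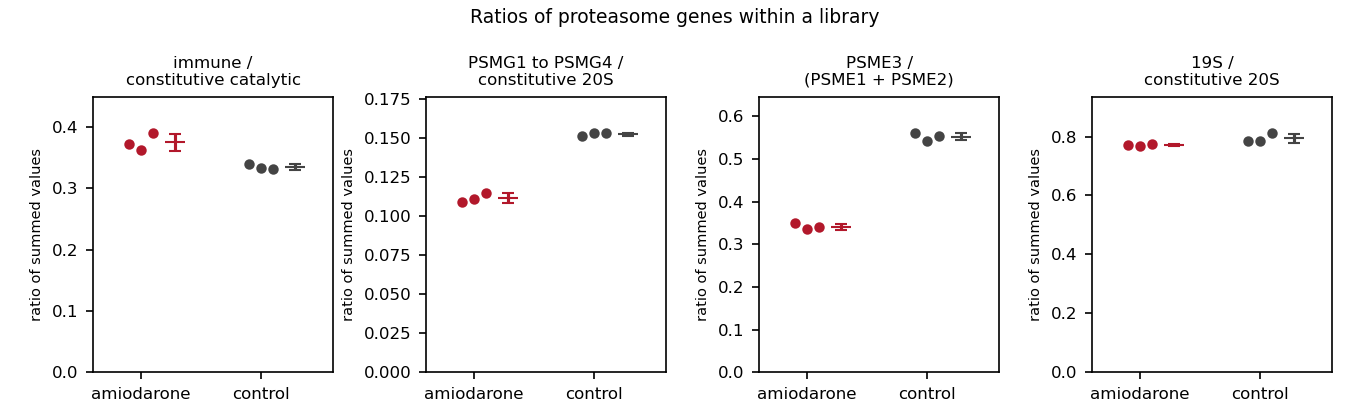
Ratio of summed RPKM-like values within each library, as points for the 3 amiodarone and the 3 control libraries with mean and SD, for immune over constitutive catalytic subunits, PSMG1 to PSMG4 over the constitutive core, PSME3 over PSME1 plus PSME2, and cap over core. The immune ratio is higher, and the others are lower, in every amiodarone library; cap over core averages 0.77 after amiodarone and 0.794 in controls.

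PSMC3IP, in the list by name alone, had 3.33, 2.73 and 1.98 after amiodarone, against 7.38, 6.74 and 5.82 in controls (log2 fold change -1.07 ± 0.121 SE, limma adjusted p = 1.06e-05). Its exons lie opposite MLX over 29.9% of their bases. Without it, 32 members fell.

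The other scalings move all genes alike, by 0.08 (median of ratios) and -0.09 (equal sums) on the log2 scale, so by construction they can turn only changes near 0. With libraries scaled by the median of ratios, 23 of the 49 members fell and 12 rose, beside 38.2% and 39.9% of all tested genes, and the members' median was -0.07. With scaling to equal sums, 40 fell and 2 rose, beside 51.6% and 27.1% of all tested genes, and the median was -0.24. Of the 33 members that fell with the values as deposited, 23 kept the call under all 13 alternatives, among them PSMG1 to PSMG4, PSME3, PSMF1, PSMC3, PSMB2, PSMB5 and POMP. Of the 4 that rose, PSMB9 and PSMD5 did so.

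**Figure D5:**
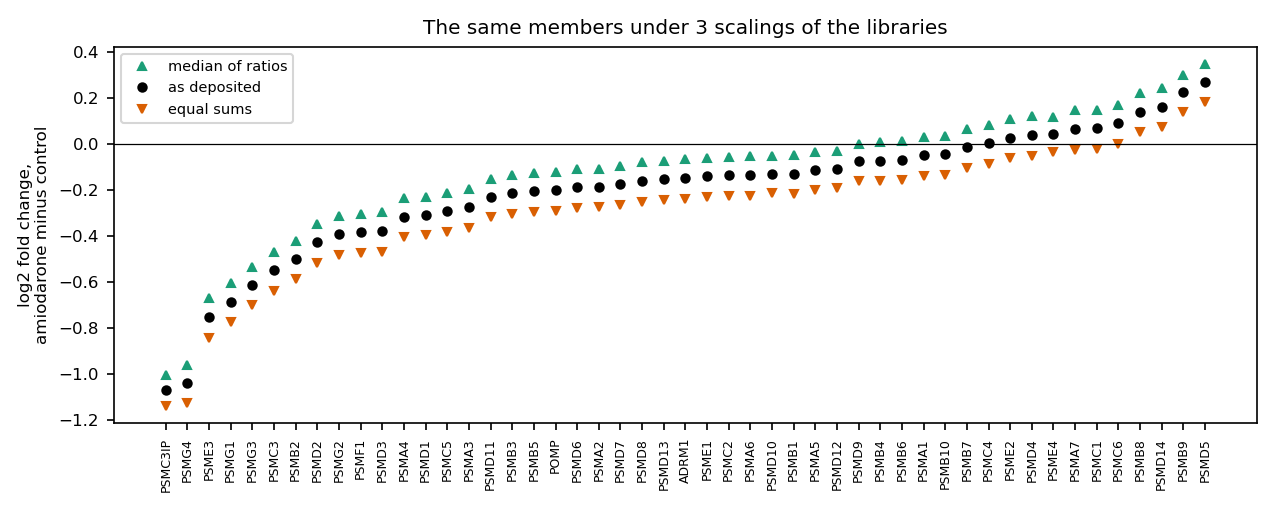
Log2 fold change of the 49 tested members, amiodarone minus control, with the libraries scaled by the median of ratios, as deposited, or to equal sums; members are ordered by the value as deposited. The 3 series run in parallel by construction, since a scaling shifts all genes nearly alike, and members near 0 lie on either side of it by scaling.

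Genes that act with the proteasome moved in both directions: of 41 tested, 19 rose and 15 fell. The shares of all tested genes, 33.5% higher and 44.8% lower, belong beside this count and those of the lists below. No list was tested as a set. Of 12 genes for transcription factors of proteasome genes and for the processing of NFE2L1, 6 rose and 4 fell. NFE2L1 itself had 76.2 ± 1.94 after amiodarone and 61.0 ± 0.96 in controls, and its relative NFE2L2 (NRF2) 50.3 ± 1.36 after amiodarone and 27.3 ± 0.555 in controls (SD, n = 3 each), and both rose. MAFF, a small MAF partner of these factors, rose to 2.04 times the control mean, MAFK fell to 0.781 times, and MAFG (36.4 ± 0.834 after amiodarone and 34.7 ± 0.143 in controls, SD, n = 3 each) did not pass the test. VCP, the ATPase that pulls ubiquitinated proteins, NFE2L1 among them, out of membranes and complexes, fell to 29.4 ± 0.998 after amiodarone, against 62.1 ± 0.531 in controls (log2 fold change -1.06 ± 0.032 SE, limma adjusted p = 3.25e-10). NFE2L1 and NFE2L2, and below SEM1, PAAF1, TAP1 and TAP2, are named for their role and not by size of change.

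Ubiquitin shuttles bring substrates to the cap, and 4 of 5 fell, UBQLN4 most (16.7 ± 1.73 after amiodarone and 30.4 ± 0.586 in controls), while UBQLN1 rose (50.9 ± 0.668 after amiodarone and 40.8 ± 1.12 in controls, SD, n = 3 each). Among 14 proteasome-bound enzymes and regulators 6 rose and 3 fell. UBE3C, a ligase that extends ubiquitin chains on bound substrates, fell to 0.685 times the control mean, and ZFAND5, an activator of the particle, rose to 1.44 times. Also lower were SEM1, the smallest cap subunit, which the name rule leaves out (53.4 ± 3.52 after amiodarone and 64.1 ± 3.56 in controls, SD, n = 3 each), and PAAF1, a further cap chaperone (0.75 times the control mean). Of 6 ubiquitin and activating enzyme genes 3 rose and 3 fell. UBA1, the main ubiquitin-activating enzyme, fell to 0.65 times and UBB, a polyubiquitin gene, to 0.73 times the control mean.

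Of 4 genes tied to the transcription of immune subunits or lying beside them, 3 rose. IRF1, an interferon-induced transcription factor, had 12.8 ± 0.597 after amiodarone and 7 ± 0.172 in controls, and NLRC5, the activator of HLA class I genes, 13.4 ± 0.412 after amiodarone and 8.22 ± 0.151 in controls (SD, n = 3 each). TAP1, a peptide transporter subunit, rose and its partner TAP2 fell (11.8 ± 0.715 after amiodarone and 16.7 ± 0.704 in controls, SD, n = 3 each).

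9 members have an annotated start within 1000 bases of that of a coding gene on the opposite strand. In 4 of the 9 pairs both genes fell and in 1, PSMB9 and TAP1, both rose. Of the 9 neighbours 5 fell and 3 rose, where 44.8% of all tested genes fell and 33.5% rose. Whether such pairs match more often than other genes was not tested. TAP1 starts 488 bases from PSMB9 on chromosome 6 and had 16.5, 16.7 and 18.9 after amiodarone, against 11.8, 12.2 and 11.3 in controls (log2 fold change 0.52 ± 0.054 SE, limma adjusted p = 5.18e-06). In the printed windows of this pair the interferon type stands in that of TAP1. PSMD13 starts 45 bases from SIRT3, the mitochondrial deacetylase named in the title of the series, on chromosome 11, and the window printed for PSMD13 holds both starts. PSMD13 had 73.5, 71.8 and 77.6 after amiodarone, against 85.0, 79.3 and 83.9 in controls (log2 fold change -0.15 ± 0.036 SE, limma adjusted p = 0.00246), a call that ended with scaling by the median of ratios (adjusted p = 0.0833). SIRT3 had 5.36, 5.81 and 5.28 after amiodarone, against 6.40, 6.85 and 6.83 in controls (log2 fold change -0.25 ± 0.054 SE, limma adjusted p = 0.00156). The groups were apart in both genes, and their exons overlap over 6.6% of those of PSMD13. The other pairs that fell together were PSMA2 with MRPL32, PSMC5 with FTSJ3 and PSMG2 with CEP76. Exons of PSMA2, PSMC5 and PSMG2 lie opposite those of these neighbours over 0.4%, 19.5% and 13.9% of their bases. Those of PSMA2 also share 14.6% of their bases with another annotated gene on the same strand. The strand setting of the counting is not given, so the assignment of reads in these pairs is uncertain.

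In other pairs the calls differed. RNF31, which starts 265 bases from PSME2 and encodes the catalytic subunit of the linear ubiquitin ligase, fell to 12.5 ± 0.785 after amiodarone, against 19.6 ± 0.567 in controls (SD, n = 3 each), while PSME2 did not pass the test. ATG4A, an autophagy protease gene 236 bases from PSMD10, rose to 5.65 ± 0.777 after amiodarone, against 4.12 ± 0.0586 in controls (SD, n = 3 each), and PSMD10 fell, in a call that ended under 4 of 13 alternatives. These 2 pairs had the largest differences between neighbour and member, -0.65 and 0.50 on the log2 scale, which were not tested.

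Members grouped by the letters in their windows are given as a description, beside 44.8% lower and 33.5% higher among all tested genes. PSMC3IP, a member by name alone, is counted with CCAAT and with the NF-kB type. Of the 21 members with CCAAT 19 fell and 2 rose (median log2 fold change -0.21), and of the 22 without it 12 fell and 2 rose, with a median of -0.09. Of the 16 tested members with TGACNNNGC 10 fell and 2 rose, with a median of -0.15, and of the 27 without it 21 fell and 2 rose, with a median of -0.17. Of the 7 with the interferon type, PSMB8 rose, 4 fell and 2 did not pass the test, with a median of -0.07, and of the 36 without it 27 fell and 3 rose, with a median of -0.18. PSMB9 is counted without it, since its window does not reach the matches between its start and that of TAP1. Of the 32 tested members with the NF-kB type 25 fell and 1 rose, with a median of -0.20, and of the 11 without it 6 fell and 3 rose, with a median of -0.07. The motifs were chosen after the values were seen.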

How the data were processed

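RNA from 3 amiodarone and 3 control libraries of HL-60 cells was made into stranded mRNA libraries, as the protocols in the labels state. Listed with no role in the submitters' processing notes are STAR 2.5.3a, fastp 0.23.4, GRCh38.p12 and featureCounts. The sources used here do not give the strand setting, annotation, normalization or treatment of reads that fit several genes. The deposited table has no unit in its header and behaves like RPKM: the values the authors deposited are not whole, their sums differ between libraries, and value times longest transcript length (GENCODE 29) gave 1.43 to 1.46 times the RPKM total. Of low values in short genes, 50.3% to 56.6% lay near a whole step, with the step chosen to raise this share. Exon unions were tried first as lengths, and gave 2.18 to 2.24 times the RPKM total, 45.9% to 54.1% near a whole step and 16200000 to 18500000 reads; longest transcripts replaced them after these values were seen.

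Genes that reached 1 in 3 or more libraries (11445) were tested with limma 3.58.1 in R 4.3.3, with trend, on log2(value + 1) as deposited, and p-values were adjusted by Benjamini-Hochberg over all of them. Fold changes on this scale understate changes of low genes. Folds of single genes are ratios of group means. Single values were tested with exact permutation in scipy 1.17.1. The procedure was tested on simulated data in which few genes were changed. Most tested genes were called here, so that test does not cover a difference this broad. Genes given in every library are the catalytic subunits, the called extremes of each other subcomplex, POMP, PSMD13 and SIRT3. PSMG1, PSMF1, PSMC3IP and TAP1 were added after the values were seen. Members, subcomplexes, lists and alternatives were chosen with earlier results of these data known. The motifs, the windows printed, the comparison with the 32 core and cap subunits, the PSMG1 to PSMG4 group and every ratio but the immune one were chosen after the values were seen. The alternatives were another pseudocount, other filters, scaling by the median of ratios or to equal sums, a replicate block, limma without trend and each library left out. Coordinates and overlaps come from GENCODE 29 (GRCh38), and starts and windows from RefSeq (GRCh38.p14). No 2 libraries were duplicates, with at most 0.751% of tested genes at identical values in any pair. Of the related genes, 1 is not reported here and is left out of its list.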

Additional observations from a re-analysis of the deposited data

How the results depend on the processing

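Other pseudocounts or filters, limma without the trend and a replicate block left every count of calls within 1.5 times its value. With scaling by the median of ratios 12 members rose, the members' median log2 fold change was -0.066 and 6 constitutive core subunits fell. With scaling to equal sums 2 members rose, the median was -0.238 and 1 immune subunit, PSMB10, fell. Without 1 library the median ranged over -0.168 to -0.134, the number of members that fell over 29 to 32 and the log2 ratio of immune to constitutive catalytic subunits over 0.138 to 0.19. Signs near 0 turned with scaling by the median of ratios for PSMB10 (0.036), PSMA1 (0.032), PSMB7 (0.066), PSMB4 (0.008), PSMD9 (0.001) and PSMB6 (0.011). They turned with equal sums for PSMC1 (-0.021), PSMC4 (-0.086), PSMA7 (-0.025), PSME2 (-0.062), PSMD4 (-0.051) and PSME4 (-0.037). PSMC4 turned to -0.002 without amiodarone replicate 2 and ranged over -0.019 to 0.021 without 1 control library. The alternative scalings shift all genes by 0.08 and -0.09 by construction. With the replicate block 31 members fell and 4 rose. Same-numbered libraries did not deviate together (r of -0.155, -0.018 and -0.023 across genes). The labels do not say whether the numbers pair them, and these correlations cannot exclude it. Leaving out PSMC3IP, and the median level as the reference for the 32 core and cap subunits (26 near it, where the mean gave 28), were added after the values were seen. Depth is an estimate, whole reads were not recovered from the values, and no count test was run.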
